A study of Rattus norvegicus with 6 samples.

Results

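The transcripts described here were the expressed noncoding RNAs and pseudogenes of the rat vestibular epithelium. They were chosen by annotation and by count: every nuclear row that the count table did not type as protein coding was kept if its mean raw count over the 6 libraries was at least 100. This left 214 of 32883 rows, and of 10609 noncoding or pseudogene rows in all, 8870 of which had no read in any library. The selection used the overall mean and not the contrast between groups, although the Control libraries were deeper and held 62.4% of all counts. Long-Evans rats received streptomycin (STREP) at 500 mg/kg once daily under the skin for 6 weeks from postnatal day 21, and Control rats received PBS on the same schedule. Each group had 3 animals, 2 males and 1 female, with 1 library per animal made from the pooled utricles and cristae of that animal. That the libraries came from separate animals is taken from the study's methods. The titles of STREP replicates 1 and 2, both male, share a code and differ in a suffix, so the labels alone do not show that these 2 libraries came from different animals, and if they did not, the STREP group held fewer than 3 independent animals and its p-values are too small. In such bulk samples, fewer cells of a type and less RNA per cell cannot be told apart.

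Long noncoding RNAs are transcribed and often spliced and polyadenylated like messenger RNAs, but carry no long open reading frame, and some act in the nucleus on chromatin or on RNA processing. Pseudogenes are copies of genes: processed ones arose from a reverse-transcribed mRNA inserted elsewhere in the genome, and unprocessed ones from a duplication. Because a processed copy resembles the mRNA of its parent, short reads can fit both, and the counting program divides such reads between them by likelihood. The count of a row typed as a pseudogene is therefore uncertain wherever the parent is abundant. No setting for strand was given in the sources used here, so reads of antisense rows cannot be told apart from those of an overlapping gene.

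The largest difference was at LOC100912427 (ENSRNOG00000030807), typed as a processed pseudogene in the count table but as a protein-coding gene, Ybx1l1, in RefSeq, and a copy of the gene for Y-box binding protein Ybx1, which packages mRNA and binds the CCAAT box. The 250 bases upstream of each gene are shown because this copy and its parent were both higher in STREP. Both are RefSeq GRCr8 sequences, at chr1:180740405-180740654 for Ybx1l1 and chr5:138184189-138184438 for Ybx1, each on the minus strand and written 5′ to 3′. Capitals mark matches on either strand to the CCAAT box, to GGGCGG as the core of a GC box, or to TATAAA as a TATA box; a match is a description of the letters and not a binding site.

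Ybx1l1: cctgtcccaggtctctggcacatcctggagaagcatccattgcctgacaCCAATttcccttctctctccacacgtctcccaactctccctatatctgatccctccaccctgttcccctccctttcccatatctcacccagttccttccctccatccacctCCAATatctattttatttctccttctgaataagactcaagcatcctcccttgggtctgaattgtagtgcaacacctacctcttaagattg

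Ybx1: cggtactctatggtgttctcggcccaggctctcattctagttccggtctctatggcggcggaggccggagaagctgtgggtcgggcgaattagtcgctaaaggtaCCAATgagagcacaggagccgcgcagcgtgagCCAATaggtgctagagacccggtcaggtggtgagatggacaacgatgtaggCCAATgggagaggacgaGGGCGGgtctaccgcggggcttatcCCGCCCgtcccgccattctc

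The Ybx1l1 window held 2 matches to CCAAT and 0 to GGGCGG, with a GC content of 49.2%. The Ybx1 window held 3 and 2, with a GC content of 61.2%, and neither held TATAAA. Of 33469 RefSeq windows of this length, 34.0% held CCAAT, 30.5% GGGCGG and 12.9% TATAAA. Downstream of the start site the 2 genes shared a run of 25 bases, GAGAGCGGACCCCAGAGAGCCCTGA, which lay at bases 9 to 33 of Ybx1l1 and 26 to 50 of Ybx1. Among all windows that included the first 50 transcribed bases, 2 of 33469 contained it. The run was picked because Ybx1l1 and Ybx1 share it, so their own windows contain it by construction. A RefSeq window was found for 32 of the 214 transcripts. Of these 1 was called, Ybx1l1, where 3.24% of all rows tested were called.

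By the types of the count table, 94 of the 214 were classed as pseudogenes. The other 120 were classed as long noncoding, which took in every type but pseudogenes and small RNAs. Both classes held rows that RefSeq types as protein coding. By annotated type there were 73 lincRNAs, 59 pseudogenes without further type, 44 processed transcripts, 22 processed pseudogenes, 8 unprocessed pseudogenes, 5 transcribed processed pseudogenes and 3 antisense RNAs. No small RNA reached the threshold: of 5661 rows for small RNA types, 82 had any count, and the highest mean was 5.17 counts, for a misc_RNA row. The libraries were primed with oligo-dT, which favours polyadenylated RNA. Just inside the threshold were Cd93 at a mean of 100.7 counts, LOC688932 at 104 and AABR07048463.2 at 105.5; just outside were AABR07069473.1 at 99.7, AABR07038873.1 at 99.5 and AABR07004799.1 at 99. The mean was at least 100 in each group for 182 transcripts, in Control alone for 28 and in STREP alone for 4.

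The annotation itself was uneven. A clone name served as symbol for 146 of the 214, and 52 matched a RefSeq gene by symbol, synonym or gene identifier. RefSeq typed 35 of those 52 as protein coding. Of these 1 was called, Ybx1l1, or 2.86%, which is near the 3.24% of all rows tested. Among the 35 were each of the 20 matched processed transcripts and 8 of the 19 matched rows of plain pseudogene type. They included Ubb, a polyubiquitin gene, Snx3, an endosomal sorting nexin, Rc3h1, a regulator of mRNA decay, and Syne2, which links the nucleus to the cytoskeleton. Another 13 were pseudogenes in RefSeq, 1 was a transcribed pseudogene and 3 were lncRNAs. Of the well-known long noncoding genes, looked up by symbol alone, Tug1 was the only one of a list of 16 widely expressed genes found. Its log2 fold change was -0.06 (adjusted p = 0.973). A list of 13 imprinted and X-inactivation genes had no row under those names, and a list of 24 snoRNA hosts had 1 row, which was typed as protein coding. Rows with clone names could not be matched to these lists, so a missing symbol does not show that a transcript was absent.

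Sequencing depth differed between groups, with 48568191 to 59906048 counts per Control library and 29333584 to 33744909 per STREP library. Of 10 summed marker lists, 3 had no overlap between groups and 7 overlapped, among them the supporting cell, Schwann cell and neuron lists. Of all single rows tested, 17.8% had no overlap, and no such share was computed for summed lists. A sum is weighted to its most abundant markers, and the direction of each marker is not given here. The 6 hair cell markers found of 7 summed to between 57777 and 59082 normalised counts in Control and between 41831 and 48481 in STREP. The 4 dark and transitional cell markers ran from 45055 to 50341 in Control and from 31037 to 37801 in STREP, and the 4 macrophage markers from 1360 to 1466 and from 1544 to 2013. None of the markers found was at 0 in every library. The part of cell composition in the results was not tested. Thinning each library to the smallest total, chosen after seeing the data, gave 4 transcripts lower and 10 higher again, and 13 of the 14 were called again.

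Whether streptomycin altered these transcripts was asked with DESeq2, calling a row at an adjusted p under 0.05 and a fold change over 1.5. Of the 214, 14 were called, 4 lower and 10 higher in STREP, or 6.54%. Over all 16250 rows tested the share was 3.24%, with 1.37% lower and 1.87% higher, and among protein-coding rows with a mean count of at least 100 it was 3.70%. All 214 were tested, and the mean raw count was at least 100 in both groups for 12 of the 14, 2 lower and 10 higher. The other two lower rows, AABR07033720.1 and AABR07017268.1, passed the threshold only through Control, where they were high. The 3 STREP values lay wholly above the 3 Control values for 33 transcripts and wholly below for 19, together 24.3%. Over all rows tested these shares were 9.12% above and 8.63% below, together 17.8%. The 19 wholly below include both called rows that passed the threshold only through Control. The number called depended on the tool, and edgeR with a count filter called 3 lower and 4 higher. Leaving out STREP replicate 2 raised the number lower from 4 to 7. No share over all rows is given for these fits, and whether calls changed alike across all rows was not tested.

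**Figure D1:**
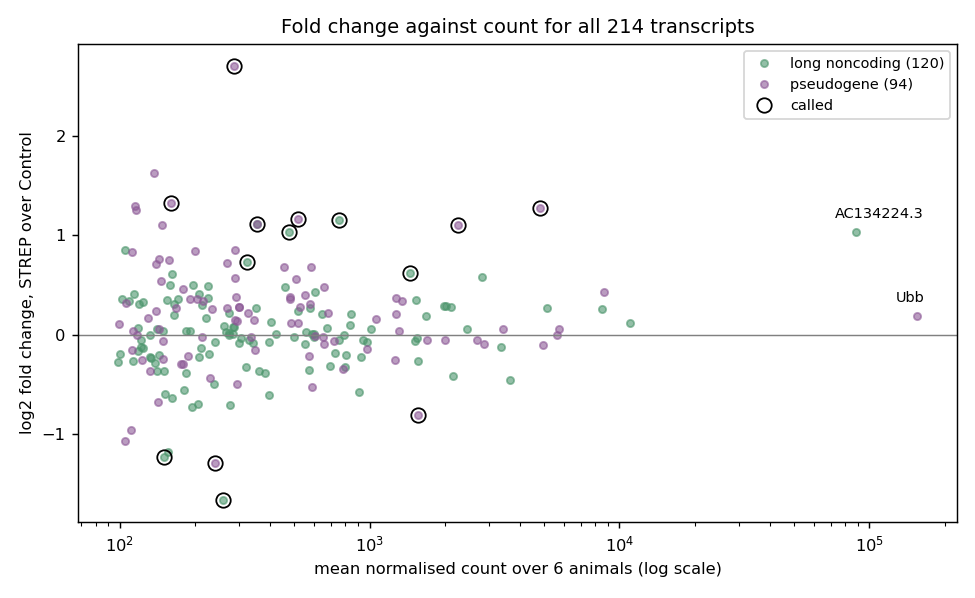
Log2 fold change of STREP over Control against the mean normalised count over 6 animals (log axis) for the 120 long noncoding and 94 pseudogene transcripts; circles mark the 14 called. The called transcripts ran from -1.66 to 2.70, and the 2 most abundant, Ubb and AC134224.3, were not called.

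Both classes held called transcripts in both directions, with 5 higher and 2 lower in each. The 2 lower long noncoding rows passed the count threshold only through Control. Pseudogenes had 22 rows wholly above and 6 wholly below Control, or 29.8% without overlap, and long noncoding RNAs had 11 and 13, or 20.0%, beside 17.8% over all rows tested. The median log2 fold change was 0.17 for pseudogenes and 0.0036 for long noncoding RNAs, beside 0.0069 over all rows tested. The pseudogene median rested largely on 1 library: it was 0.040 without STREP replicate 3, the female, and 0.0084 in the males alone. None of the 44 processed transcripts was called by DESeq2, and 5 (11.4%) had an unadjusted p under 0.05, beside 12.2% of all rows tested.

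Among the 4 lower transcripts, 2 were lincRNAs without a RefSeq match. Both passed the count threshold only through Control, where they were high, so their values are described here and not taken as support. AABR07033720.1 (ENSRNOG00000061472) had normalised counts of 220.3, 467 and 492 in the Control animals and 128, 133 and 111 in the STREP animals. The STREP values were close together and all lay below the lowest Control value. Its log2 fold change was -1.66 ± 0.35 (SE, adjusted p = 1.41e-04), and it was not called in the males alone (-1.40, adjusted p = 0.0770). AABR07017268.1 (ENSRNOG00000055328) measured 185, 297 and 151 in Control and 81.2, 82.1 and 108 in STREP. The groups did not overlap, but the log2 fold change of -1.23 ± 0.37 (adjusted p = 0.0314) was called in 6 of 15 other fits and had an adjusted p of 0.142 in edgeR. It was lost without Control replicate 1 or 2 and without STREP replicate 1 or 2.

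The other two lower rows were pseudogenes. AABR07003492.2 (ENSRNOG00000062283), a processed pseudogene, had 306, 343 and 371 normalised counts in Control and 129, 123 and 166 in STREP. Each Control value was above each STREP value, the log2 fold change was -1.29 ± 0.27 (adjusted p = 1.26e-04), and all 15 other fits called it. AABR07069282.1 (ENSRNOG00000012119) is Nek2l1 in RefSeq, a copy of Nek2, a kinase of the centrosome. It measured 1962, 2219 and 1783 in Control and 1258, 963 and 1201 in STREP, without overlap. The log2 fold change was -0.80 ± 0.17 (adjusted p = 2.79e-04), called in all 15 other fits, and Nek2 itself was lower by the same test at -0.92 ± 0.22 (adjusted p = 0.00134). Raw counts of Nek2l1 amounted to 187%, 226% and 225% of those of Nek2 in Control and to 205%, 215% and 279% in STREP. Reads shared by the copies could move between these rows as well, so the falls need not be separate.

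**Figure D2:**
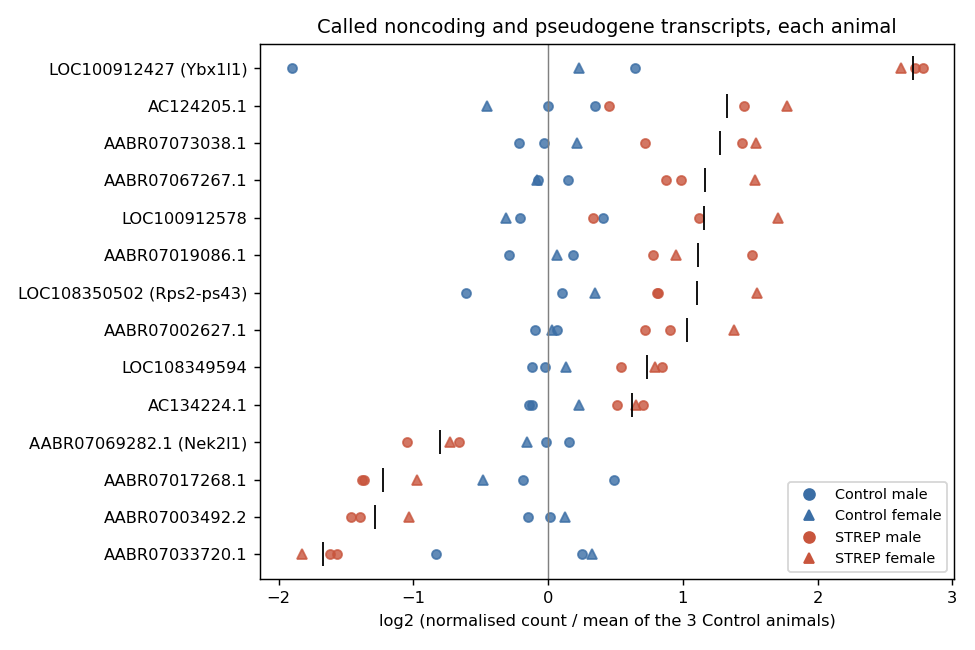
Normalised count of each animal relative to the mean of the 3 Control animals (log2 axis) for the 14 called transcripts; circles are males, triangles females, and black bars the STREP mean. Values of 4 transcripts lie left of Control and of 10 right of it, and LOC100912578 is the one where a STREP animal falls within the Control range.

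Ybx1l1 had the largest increase. Its normalised counts were 119, 20.4 and 89.4 in Control and 505, 524 and 468 in STREP. The STREP animals were alike, whereas Control replicate 2 was well below the other Control animals. The log2 fold change was 2.70 ± 0.46 (adjusted p = 8.11e-07) and was called in all 15 other fits, from 2.25 to 3.18. Ybx1 itself rose by 2.11 ± 0.25 on the log2 scale (adjusted p = 2.32e-14). Raw counts of Ybx1l1 amounted to 18.8%, 5.96% and 12.1% of those of Ybx1 in Control and to 21.1%, 20.0% and 19.8% in STREP, and reads shared by the copies could move between the rows.

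LOC108350502 (ENSRNOG00000005116) is Rps2-ps43, a pseudogene of Rps2, a protein of the small ribosomal subunit. It measured 1543, 940 and 1825 normalised counts in Control and 2518, 2530 and 4215 in STREP. All STREP values were higher, with the female highest, and the log2 fold change was 1.10 ± 0.27 (adjusted p = 0.00184). The call was lost in edgeR with a count filter (adjusted p = 0.0680). Rps2 had a similar estimate with a wider error, 1.05 ± 0.45 (adjusted p = 0.241), and the pseudogene held 17.4% to 22.4% of the count of Rps2 in every library. Of the 84 protein-coding Rpl and Rps rows, 1 was called, or 1.19%, beside 3.24% of all rows tested. Their median log2 fold change was 0.16, beside 0.0069 over all rows tested.

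**Figure D3:**
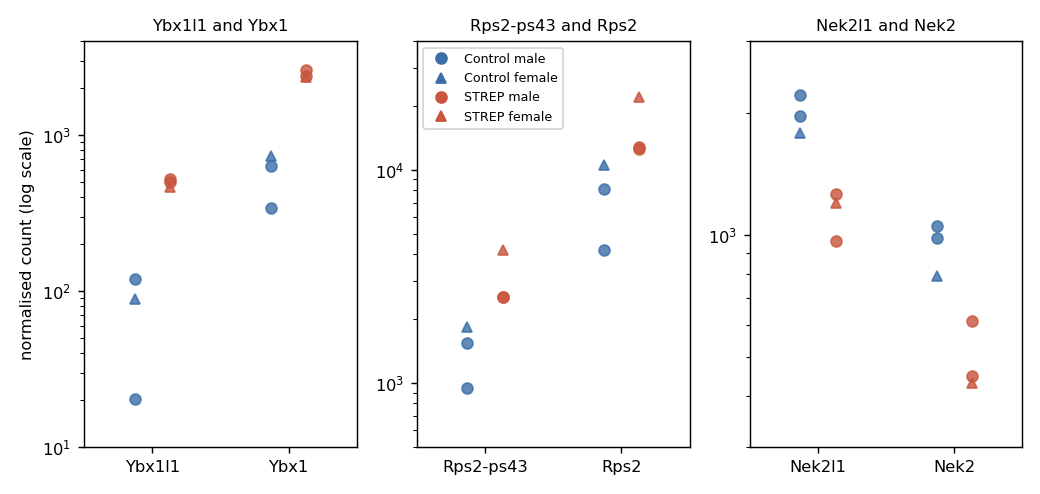
Normalised counts (log axis) of each animal for the 3 called rows typed as pseudogenes that had a matched parent, and those parent genes; circles are males and triangles females, with Control in blue and STREP in red. Ybx1l1 and Ybx1 are higher and Nek2l1 and Nek2 lower in every STREP animal than in any Control animal.

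The other three pseudogenes that rose had no RefSeq match. AABR07073038.1 (ENSRNOG00000017708) was the most abundant called row, at 2755, 2433 and 3271 normalised counts in Control and 4647, 7637 and 8195 in STREP. The groups were well apart, at a log2 fold change of 1.28 ± 0.22 (adjusted p = 6.10e-07), and all 15 other fits called it. AABR07067267.1 (ENSRNOG00000011124) measured 304, 354 and 303 against 634, 586 and 930. Its Control values were tight and none reached a STREP value (1.16 ± 0.24, adjusted p = 1.12e-04), but in the males alone the adjusted p was 0.0735. AC124205.1 (ENSRNOG00000012595) measured 91.4, 116 and 67.1 in Control and 252, 125 and 313 in STREP. STREP replicate 2 lay just above the highest Control animal, and the call (1.32 ± 0.41, adjusted p = 0.0372) held in 6 of 15 other fits, being lost without Control replicate 1 or 3 and without STREP replicate 1 or 3.

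The lincRNAs that rose numbered 5. AABR07002627.1 (ENSRNOG00000060587) had 292, 327 and 320 normalised counts in Control and 586, 516 and 815 in STREP. Its groups were far apart relative to the Control spread (1.03 ± 0.24, adjusted p = 8.82e-04), although the males alone gave an adjusted p of 0.139. AABR07019086.1 (ENSRNOG00000053968) measured 183, 255 and 235 against 639, 384 and 432. There was no overlap (1.11 ± 0.28, adjusted p = 0.00312), and the call was lost in both edgeR fits and without STREP replicate 1.

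LOC100912578 (ENSRNOG00000059883) was less even, at 405, 620 and 377 in Control and 1013, 587 and 1524 in STREP. Here STREP replicate 2 fell below Control replicate 2, and the call (1.16 ± 0.32, adjusted p = 0.0135) was lost in 7 of 15 other fits, including those without Control replicate 1 or 3 and without STREP replicate 1 or 3. AC134224.1 (ENSRNOG00000062127) showed the smallest increase, from 1054, 1038 and 1339 to 1626, 1860 and 1794. The groups did not overlap (0.62 ± 0.17, adjusted p = 0.00877), but the call was lost in 6 of 15 other fits, including those without Control replicate 1 or 2 and without STREP replicate 2. LOC108349594 (ENSRNOG00000051039), at 239, 224 and 267 against 354, 436 and 420, was likewise apart. Its call (0.73 ± 0.23, adjusted p = 0.0387) held in 5 of 15 other fits and was lost without any 1 of the Control animals, without STREP replicate 2 or 3, and after thinning.

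Parents could be matched for 15 pseudogene rows, from 14 parent genes. The pairs with a RefSeq name ending in l, Ybx1l1, Gpbp1l2 and Nek2l1, were added after their values had been seen. The log2 fold change of the pseudogene was above that of its parent in all 15 pairs, with medians of 0.40 and -0.07, and the signs matched in 9. These are values side by side, without a test, and copies can exchange reads. In 8 pairs the pseudogene count as a percentage of the parent count was higher in each STREP library than in each Control library, and in 0 it was lower in each. The 8 include Ybx1l1, a pair added after its values had been seen. No share of such separation among ratios of other genes was computed, so these counts have nothing to be judged against.

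These 8 were Ybx1l1, Hspa8-ps23, Rpl4-ps1, Hsp90aa1-ps16, Pkm-ps20, St13-ps2, Hnrnpr-ps2 and Eno1-ps6. Hspa8-ps23, a copy of the gene for a constitutive heat shock protein, held 0.0687%, 0.0964% and 0.0569% of the Hspa8 count in Control and 0.188%, 0.141% and 0.216% in STREP. The percentages did not overlap, while the row itself was not called (1.29 ± 0.43, adjusted p = 0.0658) and Hspa8 had a log2 fold change of -0.10 (adjusted p = 0.953). Eno1-ps6, a copy of the gene for the glycolytic enzyme enolase, held 1.08%, 1.17% and 0.972% of the Eno1 count in Control and 2.09%, 1.56% and 2.00% in STREP. Its estimate was 0.28 ± 0.26 (adjusted p = 0.805), whereas that of Eno1 was -0.55 ± 0.17 (adjusted p = 0.0300), short of the fold threshold. In contrast, Hspa8-ps22 held 2.03% to 2.42% of the Hspa8 count in Control and 2.05% to 2.45% in STREP, so copies of 1 parent differed.

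**Figure D4:**
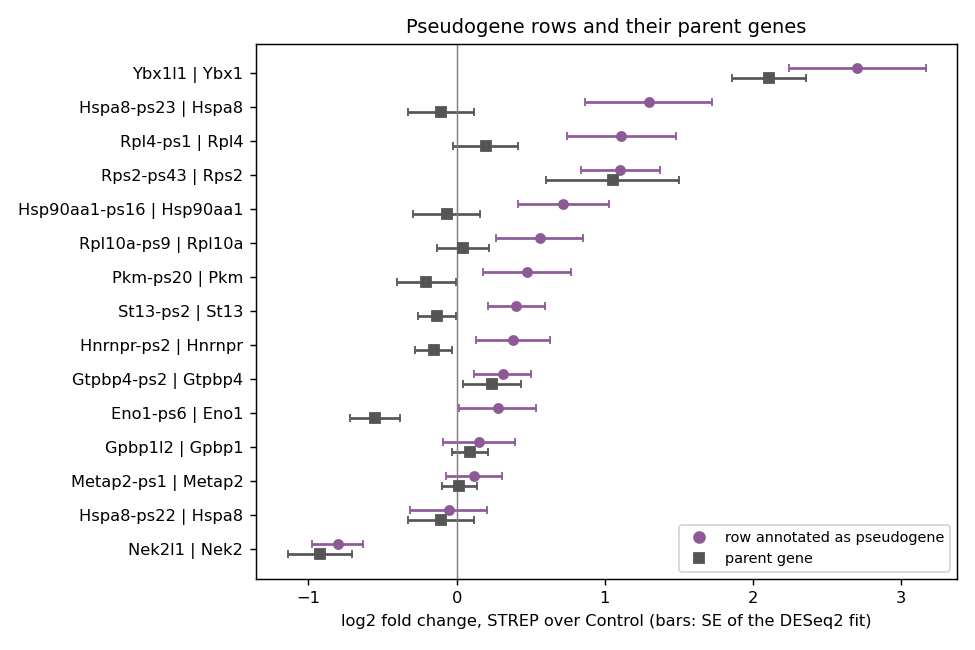
Log2 fold change of STREP over Control for 15 rows typed as pseudogenes (circles) and their parent genes (squares), with bars for the SE of the DESeq2 fit. Each circle lies to the right of its square, and the gap ran from 0.05 for Hspa8-ps22 to 1.40 for Hspa8-ps23.

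The most abundant transcripts were little separated by group. Together the 214 took 0.903 ± 0.104% of all counts in Control (SD, n = 3) and 1.08 ± 0.285% in STREP (n = 3), a difference of 0.172 percentage points (exact two-sided permutation test, p = 0.5; the smallest p possible with 3 animals a group is 0.1). Without STREP replicate 3 the difference was 0.0085, and without Ubb it was 0.152 with no overlap between groups (exact permutation p = 0.1). With AC134224.3 left out as well, the other transcripts took 0.398 ± 0.016% in Control and 0.429 ± 0.043% in STREP. That difference was 0.031 percentage points (exact permutation p = 0.3). Ubb alone took 0.292%, 0.429% and 0.364% of the counts in Control and 0.343%, 0.257% and 0.545% in STREP. AC134224.3, a lincRNA, took 0.0886%, 0.177% and 0.164% in Control and 0.173%, 0.151% and 0.470% in STREP. For both the high value was that of STREP replicate 3, and the other animals of the groups overlapped (log2 fold change 0.18, adjusted p = 0.969 for Ubb, and 1.03, adjusted p = 0.709 for AC134224.3). The long noncoding class took 0.362 ± 0.040% in Control and 0.494 ± 0.136% in STREP (exact permutation p = 0.1), a difference of 0.131 percentage points. It was 0.00984 without AC134224.3 (exact permutation p = 0.7) and 0.0527 without STREP replicate 3, both computed after the data had been seen.

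**Figure D5:**
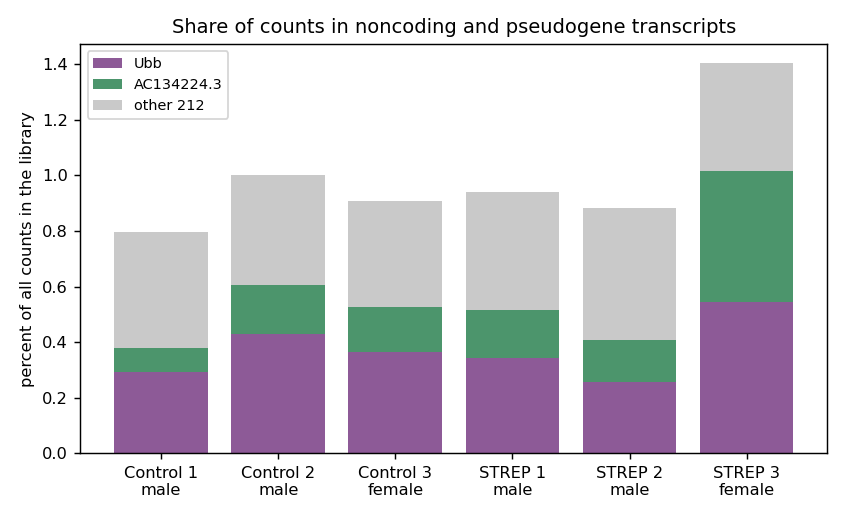
Percent of all counts of each library taken by Ubb, AC134224.3 and the other 212 transcripts, with 1 bar per animal. STREP replicate 3 reaches 1.40%, and the remaining 5 animals lie between 0.796% and 1.00%.

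Of the 10 transcripts with the highest mean normalised count, only AABR07073038.1 was called. Syne2 (AABR07064873.1) ranged from 9252 to 11962 normalised counts in Control and from 10854 to 12485 in STREP (0.12, adjusted p = 0.876). Snx3 had 12129 in STREP replicate 3 and between 7013 and 8439 in the other animals (0.26, adjusted p = 0.680). For both genes the groups overlapped. Rc3h1 was the only one of the remaining rows without overlap, at 4510 to 4936 in Control and 5387 to 6059 in STREP (0.27, adjusted p = 0.326). AABR07043421.1, LOC100359922, AABR07031521.1 and Sephs2, which encodes an enzyme of selenoprotein synthesis, had log2 fold changes from -0.10 to 0.43 with adjusted p from 0.845 to 0.999. Below them in count, St8sia2, a polysialyltransferase of neural development named after its values were seen, had 2964, 2037 and 1790 in Control and 3572, 3460 and 3106 in STREP, without overlap but not called (0.58 ± 0.20, adjusted p = 0.0826).

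Spread between animals was wider than for protein-coding rows of the same minimum count. The median coefficient of variation was 17.6% in Control and 19.4% in STREP, beside 12.8% and 14.2% for protein-coding rows with a mean count of at least 100. Beyond that minimum the sets were not matched for count. Whether the difference goes with the type of row or with its count was not tested. STREP replicate 3 held the highest of the 6 values for 30.4% of the transcripts and for 19.8% of all rows tested. The most variable pseudogenes within a group included AABR07021573.2, at 113, 15.1 and 492 in STREP, and LOC100911830, at 779, 88.5 and 1200 in STREP. In each, STREP replicate 2 stood far below the other STREP animals. In Pcdhb6, also typed as a pseudogene and among the most variable, STREP replicate 2 was instead the highest, at 20.0, 128 and 53.9 in STREP.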

How the data were processed

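Per the labels, RNA of each animal was amplified with an oligo-dT primed protocol, and the submitters' processing notes name STAR 2.5.3a and RSEM 1.3.0 with the Rnor6.0 build. The authors deposited expected counts per gene, all whole numbers, so rounding changed none. DESeq2 1.42.0 in R 4.3.3 was fitted to the whole table with group as the only term, and p-values were adjusted over all rows tested. Normalised counts are counts divided by the DESeq2 size factor. Alternatives were edgeR 4.0.16, other scalings and filters, sex as covariate, males alone, other membership thresholds, leaving out each animal, and thinning. The sex coefficient, with and without independent filtering, was examined only after the data had been seen. Fits were tested on simulated data, where DESeq2 recovered more of the changed genes than edgeR but also made a larger share of false calls, above its nominal threshold. The members and gene lists were chosen with earlier results of these data known. Named were all called members, the 10 most abundant, members of the lists, parents, and rows next to the threshold; others are named as chosen after their values were seen. RefSeq GRCr8 gave names and sequences only; the files give no coordinates. Replicates were numbered in deposition order and pair no animals. Depth ran from 29333584 to 59906048 counts per library, and replicates are treated as separate animals as the study's methods state, although 2 STREP titles share a code.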

Additional observations from a re-analysis of the deposited data

How the results depend on the processing

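The number of transcripts called higher was 10, and 4 in edgeR with a count filter, 5 in edgeR without one and 5 in the males alone. A membership threshold of 500 mean counts left 80 transcripts, with 4 higher and 1 lower. Leaving out 1 animal at a time gave 3 to 7 lower, the 7 without STREP replicate 2, and 7 to 11 higher. The share called over all rows is given for the main fit alone, at 3.24%. Whether calls changed alike across all rows in the other fits was not tested. The difference in share of counts ran from 0.0085 without STREP replicate 3 to 0.269 without STREP replicate 2. Of 570 values of 38 named members under other settings, 492 kept direction and side of the threshold, 48 lost the call, 3 gained it and 27 changed sign, none of the last called in either fit. In the males alone the log2 fold change was -0.36 for Ubb, -0.15 for AABR07043421.1, -0.12 for LOC100359922, -0.086 for AABR07048463.2 and -0.17 for AABR07031521.1. AABR07031521.1, at 0.0016, was also -0.0029 and -0.0063 in edgeR with and without the filter, -0.070 with library totals, -0.0061 with TMM, -0.037 with sex as covariate and -0.023 after thinning. Leaving out 1 animal gave ranges of -0.39 to 0.48 for Ubb, -0.062 to 0.70 for AABR07043421.1, -0.19 to 0.18 for LOC100359922, -0.034 to 0.41 for AABR07048463.2, -0.32 to 0.16 for AABR07031521.1, -0.20 to 0.065 for Sephs2, -0.42 to 0.13 for LOC688655 (Hspa8-ps22) and -0.19 to 0.040 for Tug1. The cause of these changes was not tested. No paired analysis was possible because the labels carry no number that ties animals across groups. With 3 animals a group, an exact test cannot go below 0.1, and shallower STREP libraries measure the rows near 100 counts less precisely.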

Other observations

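Sex was not part of the planned comparisons, and with 1 female per group these values were examined only after the data had been seen. With DESeq2's default filter on low means, 1 of the 214 transcripts passed an adjusted p of 0.05 for the sex coefficient, among 136 of 3734 rows that kept an adjusted p. The 214 include transcripts without an adjusted p, and how many kept one was not counted, so these counts are not on the same base. That filter left most rows without an adjusted p, AC241873.1 among them, and the fit was therefore repeated without it, which gave 3 of the 214 and 107 of 18705 rows. The transcript that passed both ways was AABR07031521.1 (Hsc70-ps2 in RefSeq), which was 0.63 higher in females on the log2 scale (adjusted p = 0.00598 with the filter and 0.0175 without). Hsc70 is another name of Hspa8, whose normalised counts were also highest in the females, at 116435 in Control and 116546 in STREP. In the males Hspa8 measured 74045 and 89341 in Control and 69494 and 74225 in STREP. The part of reads shared with Hspa8 in this difference was not tested. AABR07026012.1, an unprocessed pseudogene, passed only without the filter (0.0379) and had means of 934 normalised counts in females and 1420 in males.

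AC241873.1, a processed transcript, passed only without the filter (1.50e-12). It had 0 counts in both females and normalised counts of 716 and 990 in the Control males and 731 and 872 in the STREP males, which is at least 234-fold higher in males when the females are set to a floor of 3 counts per library. No transcript of the 214 passed for the interaction of sex and group, beside 34 of 13134 rows.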
